A study of Mus musculus with 12 samples.

Results

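The experiment described here is the 6 h curdlan response of dendritic cells that lack interleukin 2 (IL-2). Its members were the 6 of 12 arrays whose titles name IL-2 knockout cells, 3 untreated and 3 given curdlan for 6 h. The other 6 arrays were wild-type cells with the same 2 treatments and were used for the estimate of the spread and for the comparison of genotypes. The cells came from bone marrow kept 7 days with 200 ng/ml of the growth factor GM-CSF, and magnetic beads selected those with CD11c, a dendritic cell surface protein. The labels give a purity above 95% and 100 ng of total RNA per array, and they give no curdlan dose. The knockout allele is Il2tm1Hor, and the strain name B6.129P2-Il2tm1Hor/J stands on all 12 arrays, also on those of wild-type cells, so genotype was read from the genotype label and the title. The labels do not tell whether the 3 replicates are different mice or cultures. P-values therefore measure only how these samples spread, which may be technical.

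Dendritic cells sense microbes, mature, and carry antigen and cytokine signals to T cells. Curdlan is a beta-glucan polymer of the kind found in fungal cell walls, and it is bound by the receptor Dectin-1 (gene Clec7a). Dectin-1 signals through the kinase Syk and the adaptor Card9 to the transcription factor NF-kB, while interferons made by the responding cells act back through STAT proteins and interferon regulatory factors on antiviral genes. IL-2 is a T cell growth factor that dendritic cells can also make after such stimulation.

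Levels are log2 values, so a difference of 1 is a doubling. Across 19937 genes, 1 probe set each, a gene was said to have risen or fallen when its adjusted p in limma was under 0.05. The disrupted gene, Il2, did not pass. It read 6.04, 5.88 and 5.77 on untreated replicates 1, 2 and 3 and 5.87, 5.80 and 5.63 with curdlan, a change of -0.13 ± 0.20 (SE, adjusted p 0.652). No source used here places the Il2 probes relative to the deletion, so these values do not check the knockout. Clec7a was bright and did not pass (12.61, 12.71 and 12.67 untreated, 12.53, 12.54 and 12.69 with curdlan, adjusted p 0.319).

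The labelled cell type was checked on its markers. Itgax, which encodes CD11c, lay between 12.88 and 13.08 on the 6 knockout arrays, and the class II gene H2-Ab1 between 13.12 and 13.37, near the top of the scale (highest value of any probe set 14.04). Csf2rb, a GM-CSF receptor chain, lay between 13.19 and 13.34. The dendritic cell genes Flt3 and Zbtb46 were much dimmer, with untreated means of 6.78 and 7.55 and treated means of 7.695 and 8.08. Macrophage markers were also high, with a mean of the 12 genes between 10.2 and 10.7 on every knockout array, and 2 of them rose. Marker means of T cells (13 genes, 6.41 to 6.52), B cells (11 genes, 5.58 to 5.70) and NK cells (11 genes, 5.18 to 5.42) lay below the array medians of 6.89 to 6.96. The mean of erythroid and megakaryocyte markers (10 genes, 7.10 to 7.29) lay above these medians. Among them Pf4 and Ppbp were bright, with untreated means of 11.64 and 12.22. Of the T cell and B cell markers 0 rose and 0 fell. Of the NK markers Klrk1 and Ncr1 rose and Klrb1b fell, and 0 of these 3 calls held without replicate 1. Of 10 markers of plasmacytoid dendritic cells 3 rose (30.0% against 9.29% of all genes), Bst2 by 0.93, Tcf4 by 0.80 and Ccr9 by 0.30. Of these markers 0 fell, and Siglech read 5.89 on average untreated and 5.93 treated and did not pass. Their mean was 7.96, 8.04 and 7.95 untreated and 8.27, 8.19 and 8.12 with curdlan. With the replicate block 4 of these 10 rose and 2 fell, and 4 macrophage markers fell where 0 did without it.

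Curdlan changed a large part of the measured genes, mostly by little. Of all genes tested, 1853 rose (9.29%) and 2628 fell (13.2%), 22.5% in all. Counts of list members are to be read beside these shares. The median called rise was 0.35 and the median called fall -0.36. Large changes went mostly upward: 210 genes rose at least 2-fold (1.05%) and 51 fell at least 2-fold (0.256%), 40 rose at least 4-fold, 15 rose at least 8-fold, and 0 fell at least 4-fold. The median change over all genes was 0.036. The 3 treated arrays lay above the 3 untreated arrays in 3875 genes (19.4%) and below them in 4150 (20.8%). With the replicate number as a block in the 6 knockout arrays, 2863 genes rose and 3388 fell. Without both arrays of replicate 1, 1079 genes passed in all, and 2590 without both of replicate 2. Of single knockout arrays, leaving out untreated replicate 1 gave 2227, untreated replicate 3 gave 2688, curdlan replicate 1 gave 2673 and curdlan replicate 2 gave 2041. Of the 2-fold genes, 183 of 210 rises and 26 of 51 falls kept their call under every alternative listed in the closing section.

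**Figure D1:**
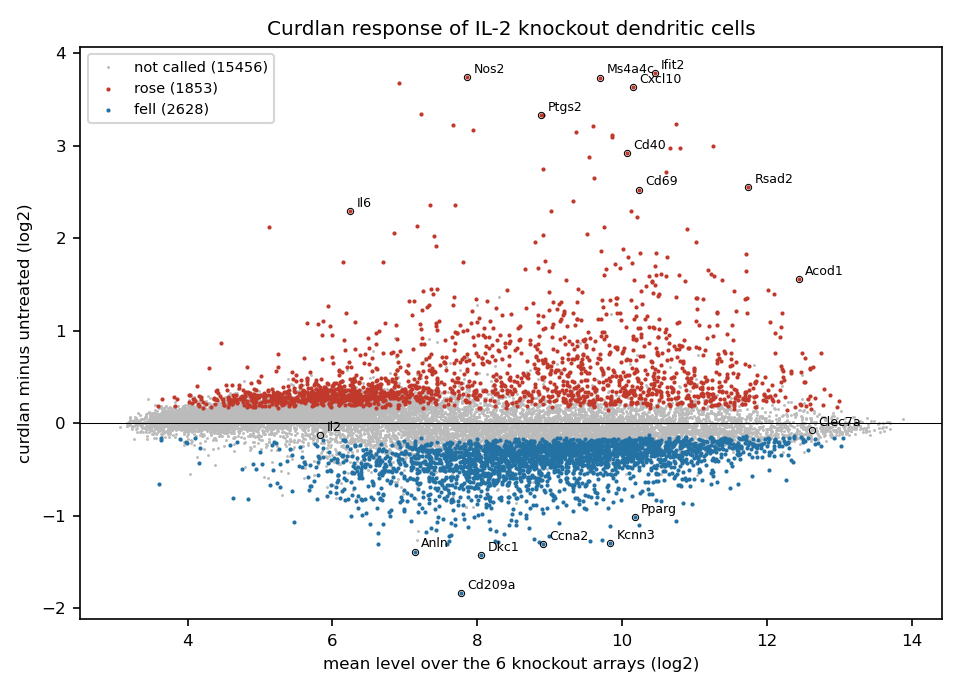
Change with curdlan (log2, vertical axis) against mean level over the 6 knockout arrays (log2, horizontal axis) for 19937 genes, with 1853 rises in red, 2628 falls in blue and the rest in grey. The tallest rises reach 3.79 (Ifit2), while the deepest fall is -1.84 (Cd209a), and Il2 and Clec7a lie near 0.

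Promoter sequences are shown here as examples of short motifs near the start sites of genes in groups that moved together; the share of each group that holds its motif follows, and for some it is small. The windows are the 200 bases before the start of transcription from RefSeq (GRCm38.p6), written 5′ to 3′ on the strand of the gene, with matches on either strand in capitals. Only windows that held the motif of their group were eligible, so its presence in them follows from the choice. Members with larger changes, such as Ifit2 and Dkc1, are not shown. The first 3 belong to interferon effector genes and carry the interferon response element (GAAA, any 2 bases, GAAA).
Ifit3 (chr19:34583329-34583528, plus strand): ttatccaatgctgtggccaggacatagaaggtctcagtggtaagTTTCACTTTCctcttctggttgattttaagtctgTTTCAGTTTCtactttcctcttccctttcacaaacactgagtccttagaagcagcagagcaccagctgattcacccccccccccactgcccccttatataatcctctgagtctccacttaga
Ifit1 (chr19:34640689-34640888, plus strand): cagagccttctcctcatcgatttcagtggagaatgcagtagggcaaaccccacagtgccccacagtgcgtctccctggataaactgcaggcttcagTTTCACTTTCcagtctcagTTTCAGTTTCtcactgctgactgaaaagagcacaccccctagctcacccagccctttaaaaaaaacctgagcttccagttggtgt
Gbp5 (chr3:142496734-142496933, plus strand): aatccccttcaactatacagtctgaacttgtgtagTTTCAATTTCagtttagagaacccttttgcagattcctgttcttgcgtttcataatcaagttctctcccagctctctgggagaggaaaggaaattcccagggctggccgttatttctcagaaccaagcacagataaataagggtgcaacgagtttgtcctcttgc
The next pair encode inhibitors of NF-kB and carry the NF-kB motif (GGGA, any 4 bases, CC).
Tnfaip3 (chr10:19015411-19015610, minus strand): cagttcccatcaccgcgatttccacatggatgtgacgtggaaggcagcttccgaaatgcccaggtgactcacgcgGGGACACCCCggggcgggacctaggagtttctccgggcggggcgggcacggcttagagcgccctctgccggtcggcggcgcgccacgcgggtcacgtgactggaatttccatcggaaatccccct
Nfkbia (chr12:55492648-55492847, minus strand): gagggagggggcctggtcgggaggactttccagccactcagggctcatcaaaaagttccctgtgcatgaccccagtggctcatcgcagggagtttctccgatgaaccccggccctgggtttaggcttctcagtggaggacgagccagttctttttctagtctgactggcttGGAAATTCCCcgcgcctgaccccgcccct
The last 3 belong to genes that fell: the mitotic genes Kif11 and Top2a with the cell cycle element TTTGAA or TTCGAA, and the nucleolar gene Nop2 with the E-box CACGTG.
Kif11 (chr19:37376182-37376381, plus strand): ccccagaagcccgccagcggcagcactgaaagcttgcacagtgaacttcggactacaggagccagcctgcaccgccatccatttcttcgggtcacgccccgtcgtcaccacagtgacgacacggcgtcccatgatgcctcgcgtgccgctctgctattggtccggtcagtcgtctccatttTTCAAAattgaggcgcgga
Top2a (chr11:99024190-99024389, minus strand): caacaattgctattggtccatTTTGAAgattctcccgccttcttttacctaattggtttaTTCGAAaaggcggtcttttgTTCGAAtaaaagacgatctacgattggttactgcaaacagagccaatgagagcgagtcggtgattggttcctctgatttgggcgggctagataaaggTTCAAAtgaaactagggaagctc
Nop2 (chr6:125131683-125131882, plus strand): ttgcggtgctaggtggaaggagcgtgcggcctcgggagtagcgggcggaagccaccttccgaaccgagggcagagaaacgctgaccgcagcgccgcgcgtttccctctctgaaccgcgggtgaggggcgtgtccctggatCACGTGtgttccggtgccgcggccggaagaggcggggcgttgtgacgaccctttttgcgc

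Motif shares were counted over 300 bases (250 before to 50 after the start) on both strands, and overlaps between different motifs were allowed. The interferon element was in 3.44% of the 32851 promoters available, against 13 of the 22 interferon effector promoters found there (59.1%) and 33 of the 157 promoters of genes that rose at least 2-fold (21.0%). The NF-kB motif was in 20.7% of all promoters and in 15 of 25 of the list of NF-kB subunits and inhibitors (60.0%). TTTGAA or TTCGAA stood in 19.2% of all promoters and in 21 of 28 mitosis promoters (75%), where the CCAAT box stood in 67.9% against 37.4%. The E2F motif (TTTCGCGC or TTTGGCGC) was in 0.813% of all and in 8 of 29 replication promoters (27.6%), and CACGTG was in 7.15% of all and in 6 of 31 nucleolar promoters (19.4%). The 32851 promoters can include several of a gene, while the groups have 1 per tested gene. Over the 15562 tested genes with 1 promoter each, the interferon element stood in 3.32%, the NF-kB motif in 23.6% and TTTGAA or TTCGAA in 16.8%. There the CCAAT box stood in 38.3%, the E2F motif in 1.16% and CACGTG in 8.4%. Among all genes that rose or fell the shares lay nearer to those of genes not called: 6.0% of rises held the interferon element against 3.14%, 28.1% held the NF-kB motif against 22.7%, and 11.3% of falls held CACGTG against 7.89%. Falls also held the NF-kB motif more often (25.2%) than genes not called. TTTGAA or TTCGAA stood in 16.6% of falls and 12.5% of rises, against 17.3% of genes not called. The CCAAT box stood in 43.7% of falls against 38.0%, and the E2F motif in 2.38% against 0.989%. The AP-1 motif TGANTCA was in 7.94% of rises, 3.8% of falls and 7.43% of genes not called. These are counts of letters and say nothing of binding.

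The strongest response was antiviral. All 29 measured interferon effector genes rose (100% against 9.29% of all genes), with a median change of 1.61, and all 29 rose under every alternative that left out arrays. Ifit2, whose protein binds viral RNA, read 8.36, 8.80 and 8.51 untreated and 12.42, 12.68 and 11.94 with curdlan, a 13.8-fold rise (3.79 ± 0.17, adjusted p 5.13e-07). Treated and untreated arrays stood far apart, with replicate 3 lowest among the treated. Ifit3 rose from 8.93, 9.40 and 9.03 to 12.45, 12.54 and 12.08, although signal of its near copy Ifit3b may be shared on the array. Ifit3b itself read 5.42, 4.85 and 4.96 untreated, near or below the lower quartile of genes (5.30 to 5.47 on these arrays), so its rise of at least 3.68 is a lower bound.

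Several effectors ended among the brightest genes. Rsad2 (viperin), which makes a nucleotide that stops viral polymerases, read 10.24, 10.58 and 10.58 untreated and 13.06, 13.12 and 12.88 with curdlan (2.55 ± 0.09, adjusted p 1.74e-07). Cmpk2, a nucleotide kinase encoded beside it, rose by 2.97 and the ubiquitin ligase gene Herc6 by 2.10. Isg20, an exonuclease, rose from 8.02, 8.24 and 7.71 to 11.34, 11.80 and 10.46. The immunity GTPase Iigp1 rose from 5.76, 6.64 and 5.75 to 9.12, 10.20 and 8.51, with replicate 2 highest in both treatments. The smallest rise of the list was that of Ifitm3, which blocks viral entry (0.61, adjusted p 0.000979), from an already bright 12.21, 12.51 and 12.27.

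Genes that act above the effectors moved unevenly. Of 24 genes for interferons, their receptors and signal carriers, 13 rose and 1 fell, and 7 rose without replicate 1. Irf7, a transcription factor that amplifies interferon production, read 9.02, 9.73 and 8.98 untreated and 12.02, 12.29 and 11.58 treated (2.72 ± 0.20, adjusted p 1.13e-05). Usp18, which damps the interferon receptor, rose by 1.83, Stat2 by 1.35 and Stat4 by 1.33. The Stat4 call was lost in 2 settings (highest adjusted p 0.0707). Ifngr1, a chain of the receptor for interferon gamma, was the member that fell, from 11.21, 11.04 and 11.13 to 10.49, 10.25 and 10.63 (adjusted p 0.00056). The interferon genes themselves were dim: Ifnb1 read 4.61, 4.72 and 4.71 untreated and 4.91, 5.10 and 4.78 with curdlan, below the lower quartile of these arrays, and did not pass (adjusted p 0.0913).

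Cytosolic sensors rose with them, 13 of 20 and 0 falls (9 without replicate 1, and 9 without curdlan replicate 2). The RNA sensor gene Ifih1 (MDA5) rose from 9.86, 10.20 and 10.07 to 11.98, 12.29 and 11.73, and Dhx58, a related helicase, by 1.84. Zbp1, a sensor of left-handed nucleic acid, rose by 1.80 and Nlrc5, an activator of class I genes, by 1.70. Class I antigen processing rose in part. Of 24 presentation genes 9 rose (37.5% against 9.29% of all genes) and 1 fell (4.17% against 13.2%). The peptide transporter Tap1 led the rises (10.33, 10.67 and 10.26 to 11.77, 11.81 and 11.38, adjusted p 6.17e-05). The immunoproteasome genes Psmb9 (1.02) and Psmb10 (0.69) and Tap2 (0.73) followed. The member that fell was H2-DMa, which helps load class II molecules (-0.21, adjusted p 0.0222, lost without replicate 1). The class II genes H2-Aa, H2-Ab1 and Cd74 each changed by -0.06 and did not pass, at levels near the top of the scale where a rise may be compressed.

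**Figure D2:**
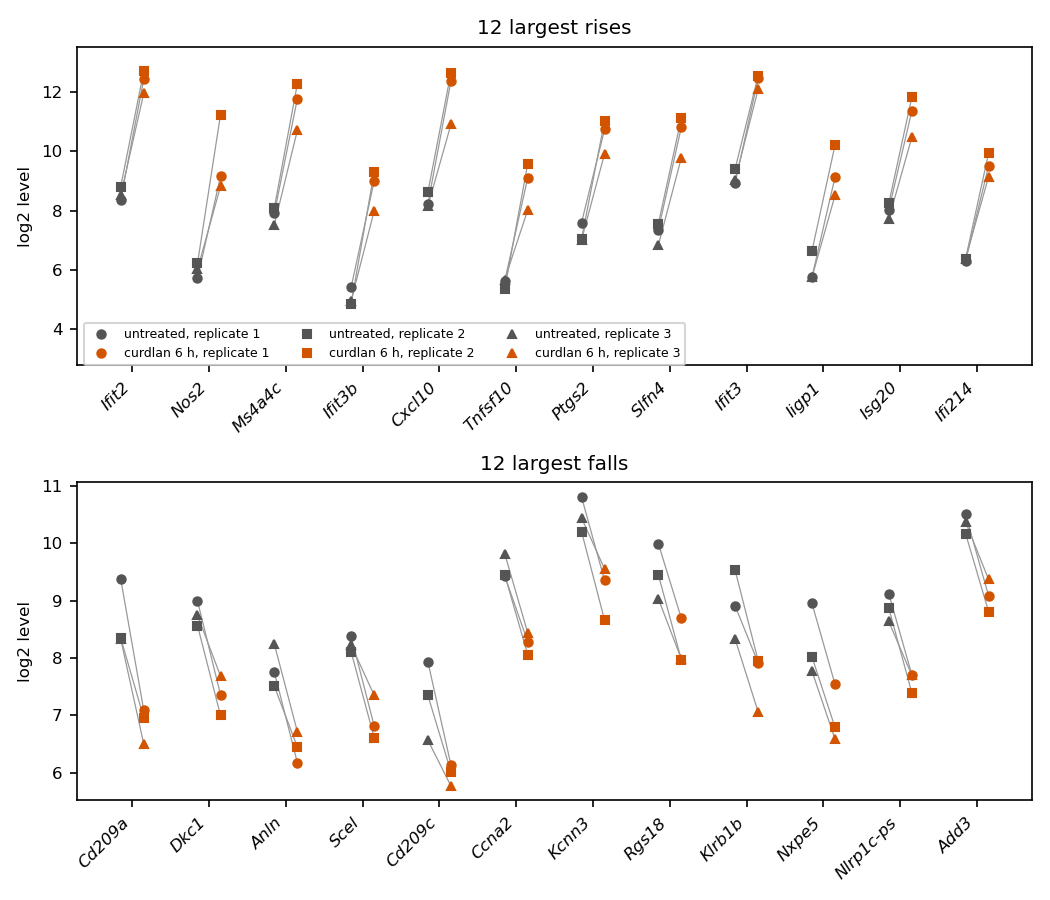
Log2 level on each of the 6 knockout arrays for the 12 genes with the largest rise (top) and the 12 with the largest fall (bottom), untreated in grey and curdlan in orange, with lines joining arrays of the same replicate number. Only genes whose 3 treated arrays lie on one side of the 3 untreated were eligible, so that separation follows from the choice. The treated level of replicate 3 (triangles) is lowest in all 12 rises.

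Signalling genes next to the curdlan receptor split in both directions. Of 21 genes of the Dectin-1 chain 6 rose (28.6% against 9.29% of all genes) and 5 fell (23.8% against 13.2%), with a median of 0.004. Without replicate 1, 3 rose and 2 fell. The kinase gene Src rose from 8.74, 8.99 and 9.37 to 9.83, 9.94 and 10.01 (adjusted p 0.00246), and Malt1, the protease that works with Bcl10 and Card9, from 11.81, 11.86 and 11.82 to 12.19, 12.20 and 12.19. Card9 itself fell from 10.07, 9.87 and 9.64 to 9.32, 9.19 and 9.20 (-0.62 ± 0.10, adjusted p 0.00163). Tnip1, a partner of the A20 protein, rose by 0.75. Of 27 other pattern receptors 5 rose (18.5% against 9.29% of all genes) and 5 fell (18.5% against 13.2%), and 3 rose and 3 fell without replicate 1. Clec4e (Mincle), a receptor for microbial glycolipids, rose from 11.02, 10.93 and 11.21 to 12.56, 12.48 and 12.19, and the RNA receptor gene Tlr3 by 1.31.

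Cd209a, mouse DC-SIGN, showed the deepest fall of all genes that passed. It read 9.38, 8.35 and 8.33 untreated and 7.09, 6.96 and 6.50 with curdlan (-1.84 ± 0.27, adjusted p 0.000979), and the highest treated array lay below the lowest untreated one. Its relative Cd209c fell from 7.93, 7.34 and 6.56 to 6.13, 6.01 and 5.76, a call lost without replicate 1 or replicate 2 (highest adjusted p 0.0799). Clec10a, a lectin for galactose-type sugars, fell by 0.88 (adjusted p 0.000168).

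Genes of the NF-kB system rose broadly. Of 29 subunits, kinases and feedback inhibitors 23 rose and 1 fell, with a median of 0.45 against 0.036 for all genes, and 12 rose without replicate 1. Tnfaip3 (A20), which shuts the pathway down, read 10.05, 10.10 and 10.17 untreated and 11.23, 11.18 and 10.94 with curdlan (1.01 ± 0.08, adjusted p 1.77e-05). The adaptor Traf1 rose by 1.24 and Nfkbiz by 1.06. The inhibitors Nfkbie and Nfkbia rose by 1.02 and from 11.10, 11.02 and 11.11 to 12.05, 12.11 and 11.78. The subunits Relb and Nfkb2 rose by 0.83 and 0.73, and Rela by 0.30. Phosphatases and AP-1 factors moved less together. Of 29, 12 rose (41.4% against 9.29% of all genes) and 3 fell (10.3% against 13.2%), and 4 and 0 did without replicate 1. Nr4a3, a nuclear receptor of early responses, rose by 1.49, Batf2 by 0.95, Maff by 0.82 and Dusp4 by 0.72, and the calls of Nr4a3 (highest adjusted p 0.0892) and Dusp4 (0.0594) were lost in some settings.

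Secreted signals rose and 0 of the cytokine or chemokine genes on the lists fell. Of 25 cytokine genes 16 rose (64.0%, and 9 genes without replicate 1). Of 23 chemokine genes 12 rose (52.2%, and 6 genes without replicate 1). Of all genes 9.29% rose. Il12b, the shared chain of IL-12 and IL-23, read 6.62, 8.10 and 8.67 untreated and 11.20, 11.40 and 10.21 with curdlan (3.14 ± 0.45, adjusted p 0.000882). The untreated arrays differed by more than 2 units, and the same-numbered differences ran from 1.54 to 4.58. Il6 read 5.18, 4.81 and 5.31 untreated, near or below that quartile, and 7.67, 7.65 and 6.85 treated, a rise of at least 2.29. Il15, a relative of IL-2 that binds the same receptor beta chain, rose from 7.66, 8.13 and 8.22 to 9.57, 10.04 and 9.44 (1.68 ± 0.18, adjusted p 0.000119), and its presenting receptor Il15ra by 1.75. Edn1 (endothelin) rose by 1.60.

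Among chemokines the T cell attractant Cxcl10 rose most. It read 8.23, 8.62 and 8.15 untreated and 12.36, 12.64 and 10.90 with curdlan (3.63 ± 0.34, adjusted p 5.54e-05). Cxcl9, which shares its receptor, read 5.51, 7.63 and 6.28 untreated and 8.09, 9.86 and 7.21 treated. Its untreated replicate 2 exceeded treated replicate 3, so the groups overlapped, and its call (adjusted p 0.0417) was lost in 11 settings. The neutrophil attractant Cxcl2 rose by 1.73 and the monocyte attractant Ccl12 by 1.75. Of 21 chemoattractant receptors 6 rose (28.6% against 9.29% of all genes) and 2 fell (9.52% against 13.2%). Without replicate 1, 3 rose and 1 fell, and 4 fell with the replicate block. Ccr7, which guides mature dendritic cells to lymph nodes, rose from 10.85, 11.73 and 11.91 to 12.51, 12.64 and 12.62, Ccrl2 rose by 1.67, and Ccr2, which draws monocytes out of the bone marrow, fell by 0.84 (adjusted p 0.00112).

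Surface proteins of mature cells rose in 17 of 27 (63.0% against 9.29% of all genes), and in 14 without replicate 1. The inhibitory receptor Cd200r1 was the 1 that fell (3.7% against 13.2%). Cd40, which receives help from T cells, read 8.40, 9.07 and 8.35 untreated and 11.72, 12.04 and 10.83 with curdlan (2.92 ± 0.29, adjusted p 7.9e-05). The early activation marker Cd69 rose from 8.97, 9.08 and 8.87 to 11.68, 12.04 and 10.77. The OX40 ligand gene Tnfsf4 rose by 1.66 and Slamf1 by 1.45. Vsir (VISTA), a checkpoint ligand outside the list, fell from 11.43, 11.17 and 11.23 to 10.30, 9.96 and 10.39 (adjusted p 0.00138). Of 36 cytoskeletal and migration genes 13 rose (36.1% against 9.29% of all genes) and 3 fell (8.33% against 13.2%). Without replicate 1, 7 rose and 0 fell, and 5 fell with the replicate block. Fscn1, which bundles actin in dendrites, rose from 10.54, 11.11 and 11.04 to 12.60, 12.58 and 12.44 (1.64 ± 0.13), the integrin gene Itgb8 by 2.05 and Marcksl1 by 1.19.

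Some of the largest changes were outside the lists. Ms4a4c, a membrane protein of the CD20 family, read 7.90, 8.09 and 7.51 untreated and 11.76, 12.26 and 10.69 with curdlan (3.74 ± 0.31, adjusted p 2.37e-05). Kcnn3, a calcium-gated potassium channel, fell from 10.81, 10.21 and 10.45 to 9.35, 8.66 and 9.55. Treated and untreated arrays did not overlap in either gene, which was a condition of choosing them.

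Genes for enzymes of small inflammatory molecules moved in both directions. Nos2, inducible nitric oxide synthase, read 5.72, 6.22 and 6.02 untreated and 9.15, 11.22 and 8.82 with curdlan, so that treated replicate 2 stood more than 2 units above the other two (3.74 ± 0.46, adjusted p 0.000343). Its call held in every setting. Ptgs2, the inducible cyclooxygenase, rose from 7.59, 7.04 and 7.01 to 10.73, 11.01 and 9.91, and Acod1, which makes itaconate, from 11.24, 11.96 and 11.79 to 13.22, 13.34 and 13.12. Gch1, which supplies the cofactor of Nos2, rose by 1.22. Of the 23 genes of this list 7 rose (30.4% against 9.29% of all genes) and 4 fell (17.4% against 13.2%). Without replicate 1, 2 fell, without curdlan replicate 2, 1 fell, and with the replicate block 7 fell. The leukotriene gene Alox5 fell from 11.25, 10.82 and 10.27 to 10.36, 9.47 and 9.20 (adjusted p 0.0409), with treated replicate 1 above untreated replicate 3.

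The clearest coordinated fall was in the machinery that builds ribosomes. Of 36 nucleolar and ribosome biogenesis genes 33 fell and 0 rose (91.7% against 13.2% of all genes), with a median of -0.49. In 34 of the 36 the 3 treated arrays lay below the 3 untreated, as they did in 20.8% of all genes. By replicate number the median difference was -0.64, -0.55 and -0.37. Without replicate 1, 19 passed, without curdlan replicate 2, 24 passed, and with the replicate block 34 did.

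Dkc1, the pseudouridine synthase of small nucleolar RNPs and telomerase, read 9.0, 8.57 and 8.75 untreated and 7.36, 7.00 and 7.68 with curdlan, a 2.68-fold fall (-1.42 ± 0.16, adjusted p 0.000199). Nop58, a core protein of the box C/D particles that methylate ribosomal RNA, fell from 9.26, 8.61 and 9.10 to 8.15, 7.35 and 8.16, and its partner Nop56 by 0.62. RNA polymerase I, which transcribes ribosomal DNA, fell in both large subunits. Polr1b went from 9.32, 8.99 and 9.19 to 8.29, 7.85 and 8.37 (-1.0 ± 0.14, adjusted p 0.000806), and Polr1a fell by 0.81. Rrn3, its initiation factor, fell by 0.46. Assembly factors of the small and large subunit followed, among them Utp20 (-0.83), Wdr12 (-0.84), Wdr75 (-0.71) and Nop2 (-0.59), while Ubtf, the factor that marks active ribosomal DNA, changed by -0.06 and did not pass. The other 2 members that did not pass were Rrp9 and Rrs1.

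**Figure D3:**
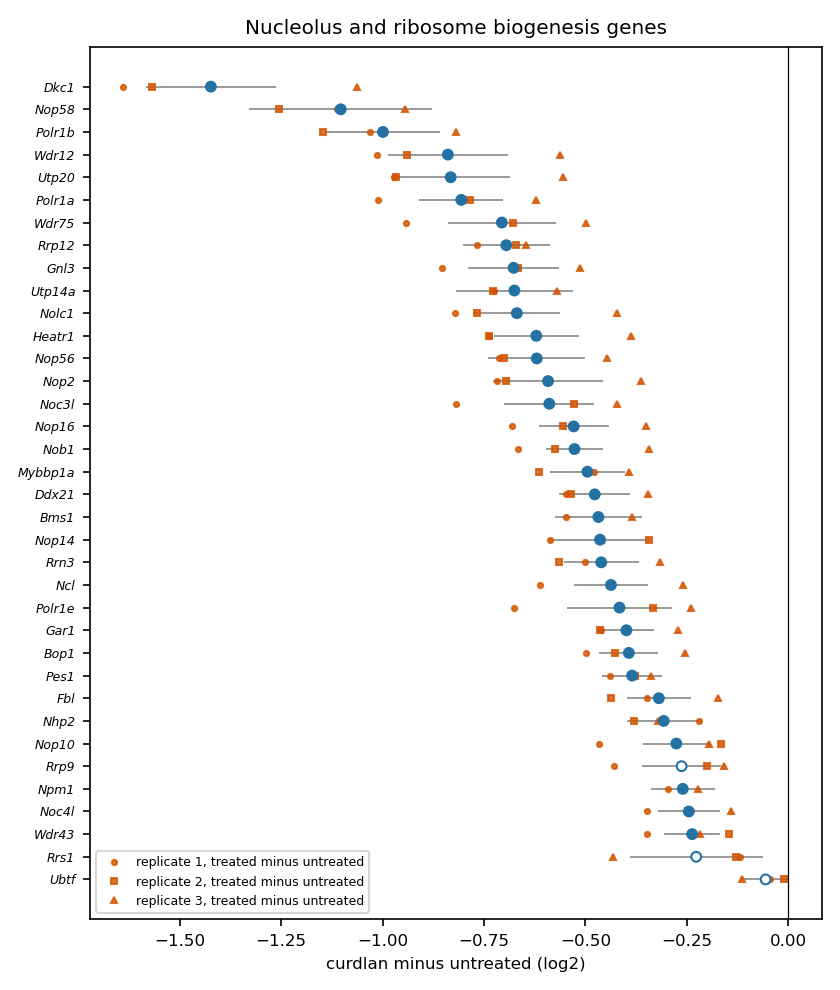
Curdlan minus untreated (log2) for the 36 nucleolar and ribosome biogenesis genes, with the fitted change and its SE (circles with bars, filled where the adjusted p was under 0.05) and the treated minus untreated difference of each replicate number (orange). Every circle lies left of 0, from -1.42 (Dkc1) to -0.06 (Ubtf), and 33 of 36 are filled.

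Neighbouring growth pathways fell by less. Of 24 tRNA synthetase and translation factor genes 14 fell (58.3% against 13.2% of all genes) and 1 rose (4.17% against 9.29%). Their median was -0.25, but 1 fell without replicate 1. Iars, the isoleucine enzyme, went from 11.32, 11.22 and 11.25 to 10.38, 10.09 and 10.75 (-0.86 ± 0.13, adjusted p 0.00125). The member that rose was Wars, the tryptophan enzyme (0.50, lost in 4 settings). Srm, which makes spermidine, fell by 0.88, the pyrimidine salvage kinase Uck2 by 0.70 and the amino acid transporter Slc38a1 by 0.68, all from levels above 11. Myc, a transcription factor of growth genes, fell from 11.00, 10.46 and 10.69 to 10.24, 9.73 and 10.04 (adjusted p 0.00623), while Mxd1, which competes with it for the partner Max, rose from 9.39, 9.62 and 9.58 to 10.75, 10.69 and 10.28 (adjusted p 0.000416). Of 15 cytosolic ribosomal protein genes 5 fell (33.3% against 13.2% of all genes), by at most 0.36 (Rpl5). With the replicate block 3 fell, and 0 fell without replicate 1 or without curdlan replicate 2.

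Proliferation genes fell as well. Of 31 mitosis genes 19 fell and 0 rose, with a median of -0.73, and of 35 replication genes 22 fell and 0 rose, with a median of -0.44. The median same-numbered differences in replicates 1, 2 and 3 were -0.74, -0.66 and -0.75 for the mitosis list and -0.52, -0.31 and -0.52 for the replication list. The counts moved with the arrays in the fit: 0 mitosis and 2 replication genes passed without both arrays of replicate 1, 9 and 8 without curdlan replicate 2, and 27 and 29 with the replicate block. Ccna2, the cyclin of S phase and mitotic entry, read 9.43, 9.45 and 9.82 untreated and 8.28, 8.06 and 8.44 with curdlan (-1.31 ± 0.22, adjusted p 0.0024), a call kept in every setting. Anln, which scaffolds the cleavage furrow, fell from 7.75, 7.51 and 8.24 to 6.17, 6.45 and 6.71 (adjusted p 0.00832, 0.0879 without replicate 1), and the spindle motor Kif11 from 8.17, 8.11 and 8.45 to 6.97, 6.90 and 7.23. Top2a fell by 1.16 and the ribonucleotide reductase gene Rrm2 by 1.13. In bulk RNA, fewer dividing cells and less of these RNAs per cell cannot be told apart.

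Of 26 checkpoint and p53-linked genes 10 fell (38.5% against 13.2% of all genes) and 2 rose (7.69%, near the 9.29% of all genes). Chek2, a DNA damage kinase, went from 8.45, 8.44 and 8.48 to 7.14, 7.41 and 7.80 (-1.01 ± 0.13, adjusted p 0.000471), and Sesn1 fell by 0.97, while the stress gene Gadd45b rose by 1.48. Without replicate 1, 3 fell, and the call of Sesn1 was lost (adjusted p 0.0503); with the replicate block 4 rose. Of 23 inhibitors and regulators of G1, 8 rose (34.8% against 9.29% of all genes) and 7 fell (30.4% against 13.2%). Ccnd2, a cyclin of G1, rose by 0.93.

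Lipid genes fell in part. Of 25 fatty acid genes 10 fell (40.0% against 13.2% of all genes) and 1 rose (4.0% against 9.29%), and 5 fell without replicate 1. Elovl6, which elongates palmitate, read 9.07, 8.92 and 8.90 untreated and 7.73, 7.48 and 8.08 with curdlan (-1.20 ± 0.13, adjusted p 0.000156). Pparg, a nuclear receptor of lipid storage, fell from 10.86, 10.39 and 10.81 to 9.74, 9.26 and 10.01, and the desaturase gene Fads1 by 0.69. Of 24 cholesterol genes 9 fell (37.5% against 13.2% of all genes) and 0 rose, with Dhcr7 at -0.72 and Stard4 at -0.49. The highest change in this list was 1.18, larger in size than these falls, and did not pass. Without replicate 1, 1 fell, and with the replicate block 15 fell and 2 rose. Respiratory chain subunits fell in 11 of 29 (37.9% against 13.2% of all genes), each by no more than 0.36, and 1 rose. Without replicate 1, 0 fell. Of 21 genes read as the glycolysis list 4 rose (19.0% against 9.29% of all genes) and 3 fell (14.3%, near the 13.2% of all genes). The falls include Pigq (-0.18), which is not a glycolysis gene and was matched by name to the listed Gpi1. Pfkfb3 changed by 0.73 and Pdk1 by -0.60, both calls lost in some settings. Of 28 lysosome genes 1 rose (3.57%) and 3 fell (10.7%), and of 22 unfolded protein genes 3 rose (13.6%) and 4 fell (18.2%, 7 genes with the replicate block), shares near those of all genes. Of 23 NRF2 and oxidative stress genes 4 rose (17.4% against 9.29% of all genes), each by no more than 0.45 (Keap1), and 0 fell. Without replicate 1, 1 rose, and with the replicate block 8 did.

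**Figure D4:**
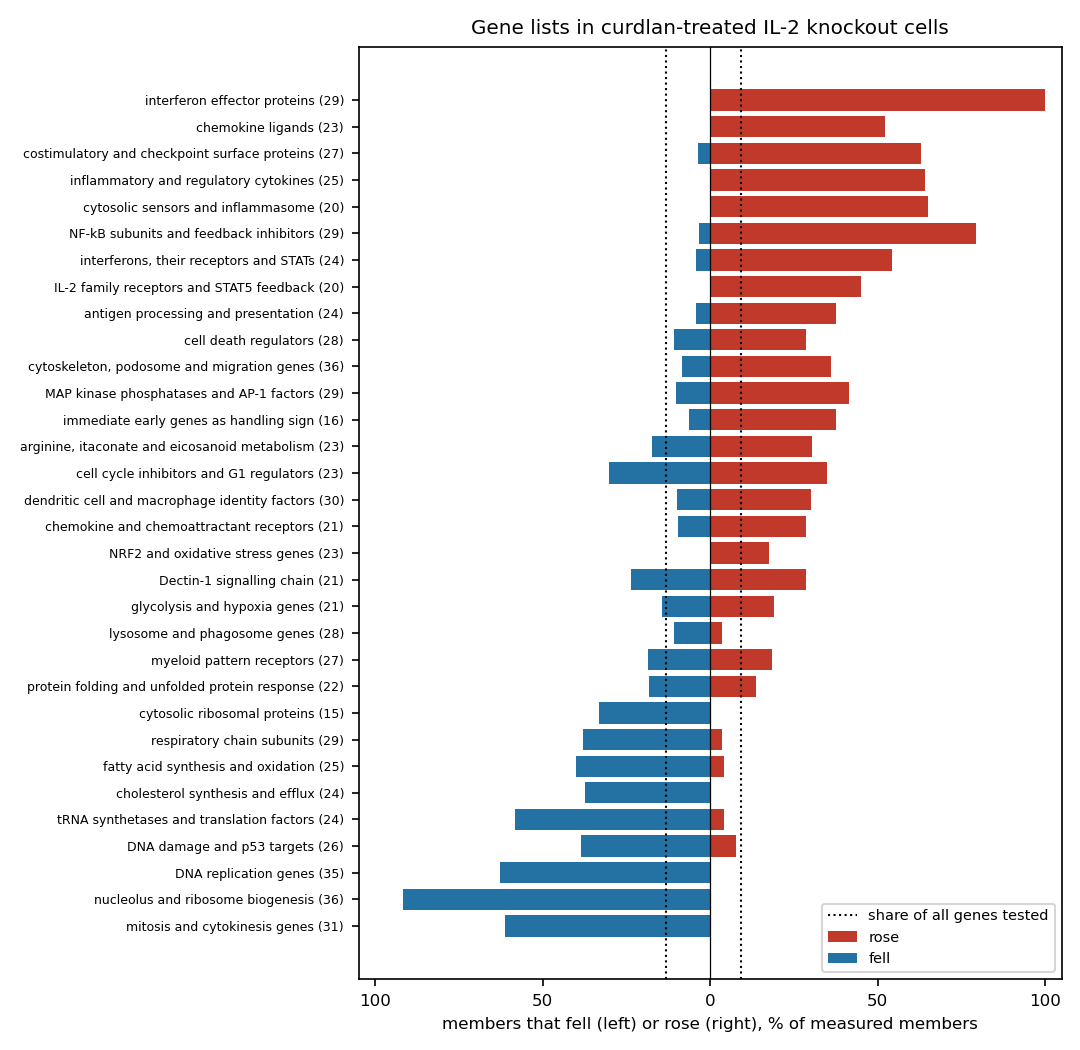
Share of measured members that rose (red, right) or fell (blue, left) in each gene list, with the number measured in brackets and the lists ordered by median change. Dotted lines give the share over all genes tested (9.29% rose, 13.2% fell); interferon effectors reach 100% on the right and nucleolar genes 91.7% on the left.

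Identity and survival genes were called in both directions, more often upward. Of 30 dendritic cell and macrophage factors 9 rose (30.0% against 9.29% of all genes) and 3 fell (10.0% against 13.2%), and 6 and 1 did without replicate 1. Zbtb46, a factor of classical dendritic cells, rose from 7.49, 7.59 and 7.59 to 8.09, 8.15 and 8.0 (adjusted p 0.00229), and Irf8 from 10.78, 11.02 and 11.07 to 11.65, 11.88 and 11.58. Flt3 rose by 0.92 and Klf4 fell by 0.85, both calls lost in some settings (highest adjusted p 0.134 and 0.143). Of 28 cell death regulators 8 rose (28.6% against 9.29% of all genes) and 3 fell (10.7% against 13.2%), and 4 rose and 1 fell without replicate 1. Tnfsf10 (TRAIL) read 5.63, 5.36 and 5.68 untreated and 9.10, 9.58 and 8.02 treated, a rise of at least 3.34 since the untreated levels lay near the lower quartile. The caspase-8 regulator Cflar rose by 1.13, Mlkl, the pore former of necroptosis, by 0.90, and Fas by 0.80. In the IL-2 receptor family 9 of 20 rose and 0 fell (3 without replicate 1), with Stat5a at 1.04 and Socs3 at 1.03 besides Il15 and Il15ra. Stromal markers rose in 3 of 14 (21.4% against 9.29% of all genes). Kdr, a VEGF receptor, rose from 8.42, 8.98 and 7.97 to 10.27, 10.72 and 9.01, Cdh5 by 0.57 and Col1a2 by 0.31. The Kdr call was lost in 4 settings (highest adjusted p 0.125), 1 of the 3 held without replicate 1, and 5 stromal markers rose with the replicate block. Of 16 immediate early genes, which also respond to handling, 6 rose (37.5% against 9.29% of all genes), led by Dusp1 (0.71), and 1 fell (6.25% against 13.2%). Without replicate 1, 0 rose. The part of these genes in the result was not tested.

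Replicate 3 responded least among the rises. The median treated minus untreated difference of the 210 genes that rose at least 2-fold was 1.54, 1.51 and 1.05 in replicates 1, 2 and 3. In 188 of the 210 the smallest difference was that of replicate 3, and in 4 the largest. The 51 genes that fell at least 2-fold had medians of -1.19, -1.21 and -1.0. Macrophage marker means were highest on replicate 3 and lowest on replicate 1 in both treatments (10.3, 10.5 and 10.7 untreated), and Apoe read 8.99, 10.16 and 11.57 untreated and 9.05, 10.01 and 11.41 with curdlan. The part of these markers in the weaker response was not tested.

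MicroRNA genes were read from their host or precursor transcripts, so their probe sets do not measure a mature arm. Mature microRNAs silence messages that pair with their seed, bases 2 to 8, in capitals below. Those shown were chosen after their values were seen, as the largest rise and the falls that share a seed.
miR-155-5p: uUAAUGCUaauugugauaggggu
miR-181a-5p: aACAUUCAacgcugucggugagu
miR-181b-5p: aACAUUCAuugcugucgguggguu
miR-15b-5p: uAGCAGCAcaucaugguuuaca
miR-16-5p: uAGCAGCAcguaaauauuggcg
The sequences are from RefSeq (GRCm38.p6): miR-155-5p lies on chr16:84714143-84714165 (plus strand), miR-181a-5p on chr1:137966468-137966490 and miR-181b-5p on chr1:137966650-137966673 (plus strand), miR-15b-5p on chr3:69009775-69009796 (plus strand) and miR-16-5p on chr14:61631936-61631957 (minus strand). Of 272 microRNA genes tested 28 rose (10.3%, against 9.29% of all genes) and 10 fell (3.68%, against 13.2%), so the share of rises was near that of all genes and the share of falls below it. The genes below are described singly. Mir155, induced in activated immune cells, read 7.67, 8.18 and 7.84 untreated and 9.92, 10.41 and 9.46 with curdlan (2.04 ± 0.26, adjusted p 0.000493). Mir181a-1 fell from 7.36, 7.06 and 6.88 to 6.26, 6.13 and 6.41, and its neighbour Mir181b-1 by 0.71. Their seed ACAUUCA is also that of Mir181c, which rose by 0.31. Mir15b fell from 5.23, 4.72 and 5.14, below the lower quartile of genes on these arrays, to 4.0, 4.21 and 4.44, and Mir16-1 by 0.41, while Mir497 with the same seed AGCAGCA rose by 0.42.

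Set beside wild-type cells, the response of knockout cells had the same signs. All 261 genes at least 2-fold changed in knockout cells had a change of the same sign in wild-type cells, where 3899 genes passed in all (19.6%), with median changes of 1.34 in knockout and 1.39 in wild-type cells for the rises and -1.13 and -1.15 for the falls. The difference between the responses (interaction) passed in 0 of 19937 genes in limma (0.0%), and 552 had an unadjusted p under 0.05 (2.77%), 28 of them among the 261. Without any difference, a share of 0.05 would be expected under that threshold. The smallest adjusted p, 0.357, was that of Il2, which rose by 1.77 in wild-type cells (difference -1.89, 95% interval -2.51 to -1.28). With single arrays left out, 1 or 2 genes passed: Ifi205 without knockout untreated replicate 1 (adjusted p 0.0441), Macc1 and Il2 without wild-type curdlan replicate 1, and Il2 and Hbb-y without wild-type curdlan replicate 3.

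Single intervals show what these arrays could and could not resolve. Over all genes the median difference (knockout minus wild-type change) was 0.01. Of those with an unadjusted p under 0.05, 354 had a difference above 0 and 198 below. The share of all genes on each side of 0 was not counted. Genes of a list were read on the same arrays and may shift together, so the sign counts below are not counts of independent observations. Of the 29 interferon effectors 24 rose by less in knockout cells, 9 with an unadjusted p under 0.05, and their median change was 1.61 against 1.98 in wild-type cells. For Rsad2 the difference was -0.57 (interval -0.87 to -0.28, adjusted p 1) and for Ifit1 it was -0.62 (interval -1.04 to -0.19). Itgb8 rose by 2.05 in knockout and 3.46 in wild-type cells (difference -1.41, interval -2.24 to -0.59), and Cd209a fell by 1.84 against 2.87 (difference 1.03, interval 0.21 to 1.85). Nos2 rose by 3.74 against 2.65, a difference of 1.10 whose interval (-0.32 to 2.51) spans 0. For the nucleolar genes the median change was -0.49 in knockout and -0.47 in wild-type cells, and Dkc1 differed by -0.14 (interval -0.64 to 0.36). Of the 31 mitosis genes 30 had a knockout change above the wild-type one (medians -0.73 and -1.06), 1 with an unadjusted p under 0.05. These adjusted p-values were all at 1, which does not show that the responses were equal.

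**Figure D5:**
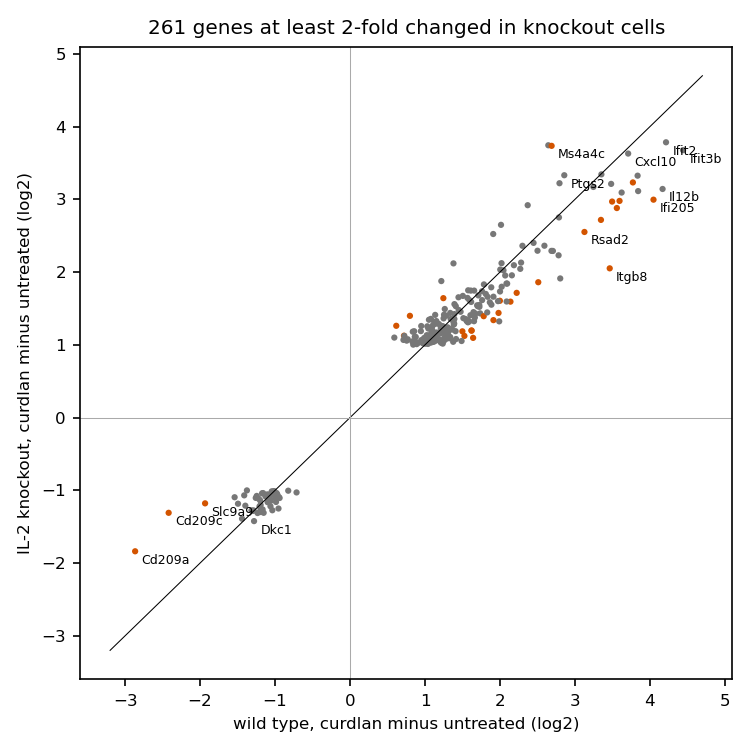
Curdlan minus untreated (log2) in knockout cells (vertical axis) against wild-type cells (horizontal axis) for the 261 genes at least 2-fold changed in knockout cells, with the line of equal change and, in orange, the 28 with an unadjusted interaction p under 0.05. All points lie in the lower left or upper right, since the change of each gene had the same sign in both genotypes.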

How the data were processed

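The analysis used 12 Affymetrix Mouse Gene 1.0 ST arrays in 4 groups of 3, 6 of them knockout. The deposited values are log2 levels, which the authors made with RMA, per the submitters' processing notes. No source used here gives its version or says which arrays were normalised together. RMA equalises distributions, so a change shared by most genes would be removed. Of 34760 probe sets 21640 carried 1 symbol, 1321 several and 11799 none in the probe table. Among probe sets of a gene the one with the highest mean over the 12 arrays was kept, which gave 19937 genes.

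The fit, in limma 3.58.1 (R 4.3.3), took all 12 arrays with a mean for each group (8 residual degrees of freedom, two-sided moderated tests, Benjamini-Hochberg over all genes, threshold 0.05). Intervals of 95% are those of this fit. The code was tested on simulated data. Array number limits the precision. The replicate numbers paired the samples: after removal of group means, untreated and treated knockout arrays of the same number correlated across genes at 0.486, 0.526 and 0.604, and other pairs at 0.025 or less.

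Genes were named by rule: Il2 and Clec7a, the 12 largest rises and falls without overlap between groups, up to 8 rises and 8 falls among highly expressed genes, the 6 with the widest range between replicates, and up to 4 members of each list. Genes switched on from below the lower quartile to above the median numbered 0. Further genes in the text were chosen after their values were seen. The members and lists were chosen with earlier results of these data known. Alternatives were fewer arrays, replicate block, array weights, a second quantile normalisation, an intensity trend, leaving out dim genes, and the mean over probe sets.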

Additional observations from a re-analysis of the deposited data

How the results depend on the processing

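Of 162 named genes that passed, 96 kept their call in every setting, 66 lost it in at least 1 and 0 reversed. Leaving out arrays gave 1079 to 5284 genes past the threshold, 579 to 2464 higher, 500 to 2906 lower, 167 to 262 at least 2-fold higher, 24 to 90 at least 2-fold lower, and 0 to 2 for the interaction, against 4481, 1853, 2628, 210, 51 and 0. Higher genes numbered 1176 from the 6 knockout arrays alone, 2816 with array weights and 3080 with a random replicate block. With the replicate number as a block they numbered 2863 in the 6 knockout arrays and 2873 in all 12. The 2-fold rule left 261 in all. The cause of these shifts was not tested. Leaving out wild-type arrays and, for the knockout response, the block over 12 arrays were chosen after seeing the data. Among genes at least 2-fold higher, the interferon element stood in 21.0% of promoters, TTTGAA or TTCGAA in 19.1%, E2F in 1.27%, TGANTCA in 14% and CACGTG in 2.55%. Among those at least 2-fold lower, the NF-kB motif stood in 22.7%, TTTGAA or TTCGAA in 29.5%, CCAAT in 50%, E2F in 0.0%, TGANTCA in 6.82% and CACGTG in 9.09%. These rest on 157 and 44 promoters. Genes near the lower quartile have only a bound on their rise, and those near 14 may be compressed.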

Other observations

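Genes on no list also changed at least 2-fold, and those below were chosen after their values were seen. Il23r, which encodes a chain of the IL-23 receptor, rose by 2.02, and Cfb (1.52) and Ptx3 (1.16), soluble proteins of complement and pathogen recognition, rose with it. The Notch ligand gene Jag1 rose by 1.12 and Procr, the endothelial protein C receptor, by 1.10. The chemokine gene Ccl1 rose by 1.32. Among the falls were Deptor, an inhibitor of the kinase mTOR (-1.05), Polr3g, a subunit of RNA polymerase III (-1.16), Rpp25, a subunit of RNase P (-1.09), and Ctps, which makes the nucleotide CTP (-1.0).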
